A study of Mus musculus with 28 samples.

Results

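Transcripts of sterol synthesis genes were followed in leukocyte sorts from 2 tumour lines, over 3 days each and 2 host genotypes. The 29 genes come from textbook knowledge of cholesterol synthesis and its control by the transcription factor SREBP2. They were chosen with earlier results of these data known, so their counts beside those of all genes are descriptions. They encode enzymes from acetyl-CoA to cholesterol, SREBP2 with the proteins that hold or escort it, and proteins of sterol transport and storage. Of these, 26 had a probe set that names the gene alone, out of 17097 such genes on the array, and Acat2, Pmvk and Soat1 were not analysed here. Cells positive for CD45, the surface protein of haematopoietic cells, had been sorted from tumours and lysed without culture. The Nrp1-deleted mice were Nrp1L/LFoxp3Cre-YFP: they carried loxP-flanked Nrp1 alleles with a Cre recombinase and YFP expressed from Foxp3, so that Nrp1, which encodes neuropilin-1, is meant to be deleted only in cells that express Foxp3, the regulatory T cells. Control mice were Foxp3Cre-YFP, with the same Cre and YFP and no floxed Nrp1 allele named. Hosts of both genotypes bore B16.F10 tumours, from a melanoma line, sampled early and on days 12 and 18, or MC38 tumours, from a colon carcinoma line, sampled on days 6, 12 and 18. Each genotype had 3 arrays for B16 at day 18 and for MC38 at day 12, and 2 arrays in each of the other 4 settings of tumour and day, which makes 28 arrays in 12 groups. Titles put the early B16 arrays at day 8 and source names at day 6. Ages of the mice are not given, and separate mice are not named as the source of replicates. Each p-value therefore reflects only how far these arrays spread, which may be technical.

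Cells make cholesterol from acetyl-CoA through mevalonate, the isoprenoids and squalene. When sterol in the endoplasmic reticulum is low, the escort protein SCAP carries SREBP2 to the Golgi, where it is cut to release a transcription factor that raises most genes of the pathway, and when sterol is high, INSIG proteins retain the SCAP and SREBP2 complex. In macrophages the pathway is set against uptake of cholesterol and its efflux, and the oxysterol receptor LXR drives the efflux. Activated, dividing T cells raise the pathway to build membranes.

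Values are log2 intensities as deposited, so a difference of -1 is a 2-fold lower value. Differences are Nrp1-deleted minus control, each ± its standard error, and a gene is called lower or higher where its adjusted p from the limma model over all genes was under 0.05. The distribution of values separated the arrays into 3 sets, with a mean of 4.63 for B16 day 18 and MC38 day 12, 4.83 for MC38 days 6 and 18, and 4.96 for the early and day 12 B16 arrays. Levels are therefore compared only within a set, where each contrast of genotypes lies. Nrp1 itself averaged between 7.90 and 9.31 in Nrp1-deleted groups, against between 9.11 and 10.16 in control groups. These ranges span the 3 sets, but within each of the 6 settings the deleted mean was the lower one. The sorts hold all CD45+ cells, so these values do not measure deletion in regulatory T cells. Precision is limited by how few arrays each group had. Ptprc, the gene for CD45, averaged between 11.73 and 12.84 in the groups and was 0.25 ± 0.03 higher in Nrp1-deleted hosts (adjusted p = 5.1e-06).

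Transcripts of cholesterol synthesis were lower in the CD45+ sorts from tumours of Nrp1-deleted hosts. In the mean over the 6 settings, 21 of the 26 genes were called lower and 0 higher, against 17.9% of all genes called lower and 11% higher. The median difference of the 26 was -0.40, against -0.03 over all genes. Enzymes of the squalene and isoprenoid steps led: Sqle, squalene epoxidase, was lower by 0.79 ± 0.09 (1.73-fold), and Fdps, farnesyl diphosphate synthase, by 0.75 ± 0.08 (1.68-fold). The 5 genes without a call were Ggps1 (0.23 ± 0.09), Ebp (0.03 ± 0.04), Insig2 (-0.10 ± 0.07), Scap (0.08 ± 0.04) and Npc1 (-0.00 ± 0.06). The B16 sorts also held transcripts of melanocytic genes. At day 18 these summed to 890 to 2080 intensity units in Nrp1-deleted hosts and 12100 to 17000 in control hosts. In mixed sorts, fewer cells of a type and less RNA per cell cannot be told apart. Of the 21 calls, 20 were made whichever single array was left out. The exception was Npc2 (-0.09 ± 0.03), called in 18 of 28 such fits, with an adjusted p of 0.0791 without B16 day 12 deleted replicate 2.

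**Figure D1:**
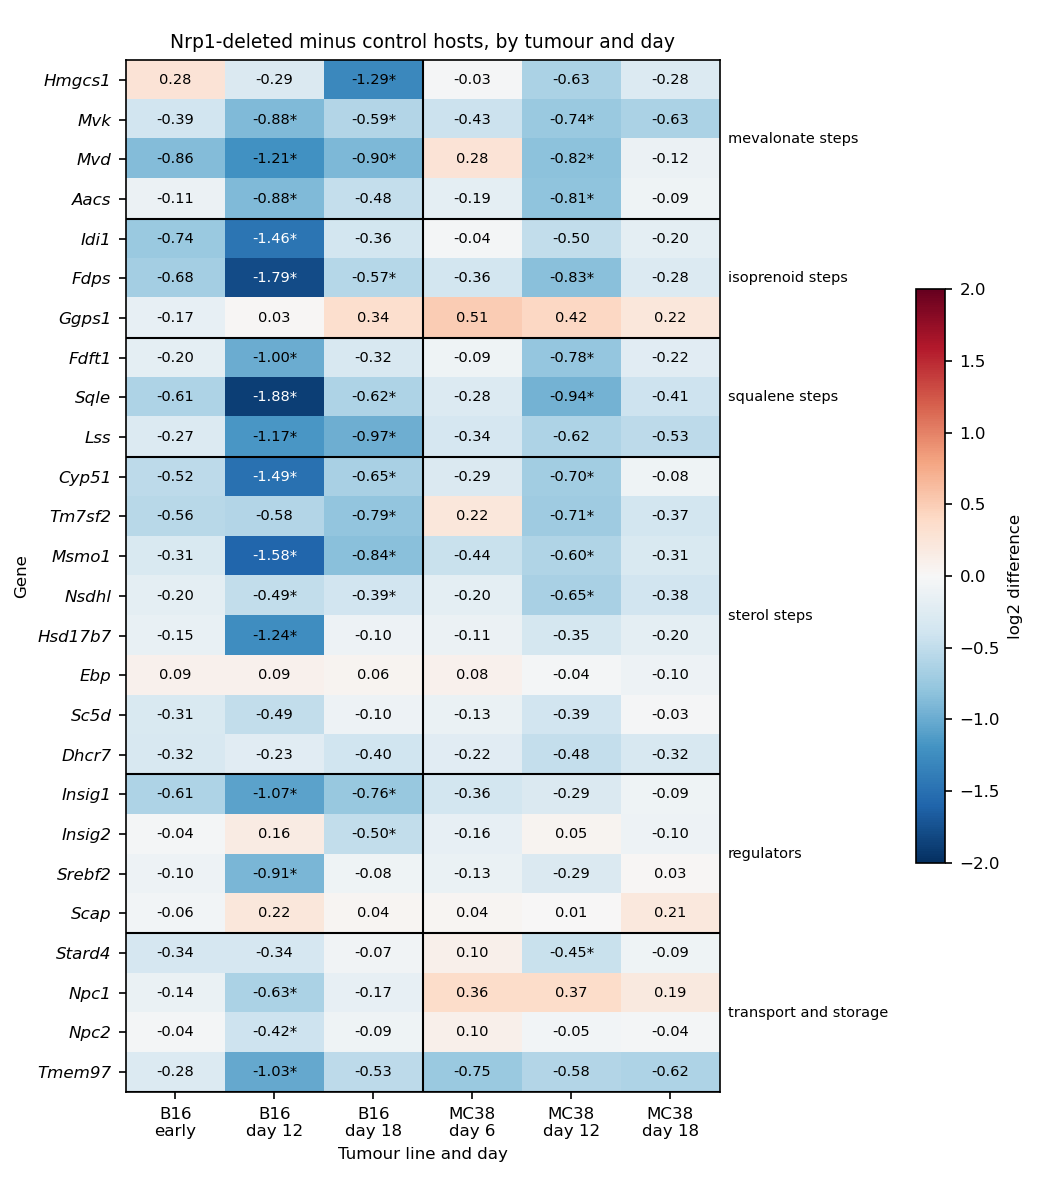
Log2 difference (Nrp1-deleted minus control) of each of the 26 genes in rows, ordered by role, for the 6 settings of tumour and day in columns. Blue is lower and red higher in Nrp1-deleted hosts, a star marks an adjusted p under 0.05, and the deepest values are in B16 tumours at day 12, where Sqle reached -1.88 and Fdps -1.79.

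The direction was shared across settings for most enzymes. The deleted mean was below the control mean in 6 of 6 settings for 15 of the 26 genes, which held for 7.94% of all genes. For Mvk, Fdps, Sqle, Msmo1, Nsdhl and Tmem97 every Nrp1-deleted array lay below every control array in all 6 settings, which held for 0.743% of all genes. By setting, every Nrp1-deleted array lay below every control array for 19 of the 26 genes in early B16 tumours (22.9% of all genes), 22 in B16 at day 12 (24.1%), 16 in B16 at day 18 (15.8%), 11 in MC38 at day 6 (25.9%), 14 in MC38 at day 12 (17.1%) and 9 in MC38 at day 18 (32.6%). The shares in MC38 at days 6 and 18 were nearest those of all genes. No gene of the 26 had a higher deleted mean in 6 of 6 settings.

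Among the enzymes of the mevalonate steps, all 4 that were measured were called lower, with a median of -0.52. Mvk encodes mevalonate kinase, which phosphorylates mevalonate. Mvk in B16 tumours had log2 values of 5.82 and 5.65 in Nrp1-deleted hosts against 6.33 and 5.91 in control hosts at the early day, 4.98 and 5.20 in Nrp1-deleted hosts against 5.95 and 6.0 in control hosts at day 12, and 5.43, 5.06 and 5.60 in Nrp1-deleted hosts against 6.27, 5.64 and 5.95 in control hosts at day 18. In MC38 tumours its values were 5.50 and 4.98 in Nrp1-deleted hosts against 5.57 and 5.77 in control hosts at day 6, 5.29, 5.14 and 5.32 in Nrp1-deleted hosts against 6.11, 5.64 and 6.23 in control hosts at day 12, and 5.24 and 5.43 in Nrp1-deleted hosts against 5.95 and 5.98 in control hosts at day 18. The groups of Mvk did not overlap at any tumour and day. Its mean difference was -0.61 ± 0.09 (adjusted p = 1.36e-05), but a second probe set of Mvk gave -0.21 (adjusted p = 0.278). Mvd encodes mevalonate diphosphate decarboxylase, which forms the isoprenoid unit isopentenyl diphosphate. Mvd in B16 tumours had log2 values of 5.79 and 5.69 in Nrp1-deleted hosts against 6.77 and 6.43 in control hosts at the early day, 5.71 and 5.72 in Nrp1-deleted hosts against 6.80 and 7.04 in control hosts at day 12, and 6.28, 5.87 and 5.76 in Nrp1-deleted hosts against 6.87, 6.83 and 6.92 in control hosts at day 18. For MC38 tumours the values of Mvd were 6.70 and 6.74 in Nrp1-deleted hosts against 6.31 and 6.57 in control hosts at day 6, 5.11, 5.29 and 4.81 in Nrp1-deleted hosts against 5.97, 5.58 and 6.13 in control hosts at day 12, and 5.96 and 5.56 in Nrp1-deleted hosts against 5.85 and 5.90 in control hosts at day 18. In B16 all Nrp1-deleted arrays were below all control arrays on each day. In MC38 that held at day 12, while the Nrp1-deleted arrays were above the controls at day 6 and the groups overlapped at day 18. Mvd differed by -0.61 ± 0.08 over all settings (adjusted p = 2.67e-06), and its second probe set by -0.56 (adjusted p = 0.00286). Aacs, the cytosolic acetoacetyl-CoA synthetase, differed by -0.43 ± 0.09, and its other probe set, at a mean of only 3.26, gave 0.03 (adjusted p = 0.86). Hmgcs1, the enzyme that makes the precursor reduced to mevalonate, was read by a single probe set with a low mean of 4.03, where the median of all values was 3.64. It differed by -0.37 ± 0.11 (adjusted p = 0.0153) with no call without the B16 day 18 arrays (-0.19, adjusted p = 0.215). On the early B16 day its Nrp1-deleted arrays, at 4.63 and 4.71, lay above the controls, at 4.28 and 4.50.

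Of the 3 enzymes of the isoprenoid steps, Idi1 and Fdps were called lower and Ggps1 was not. Fdps joins isoprenoid units into farnesyl diphosphate, the branch point between sterols and protein prenylation. Fdps in B16 tumours had log2 values of 9.12 and 8.79 in Nrp1-deleted hosts against 9.57 and 9.70 in control hosts at the early day, 7.80 and 8.48 in Nrp1-deleted hosts against 9.85 and 10.00 in control hosts at day 12, and 9.16, 8.90 and 9.12 in Nrp1-deleted hosts against 9.68, 9.58 and 9.64 in control hosts at day 18. Across MC38 tumours the values of Fdps were 9.09 and 8.70 in Nrp1-deleted hosts against 9.23 and 9.28 in control hosts at day 6, 8.33, 7.86 and 7.59 in Nrp1-deleted hosts against 8.64, 8.47 and 9.16 in control hosts at day 12, and 8.62 and 8.58 in Nrp1-deleted hosts against 8.99 and 8.77 in control hosts at day 18. All Nrp1-deleted arrays of Fdps were below all control arrays of the same tumour and day, and the gap was widest in B16 at day 12. The mean difference had an adjusted p of 4.26e-07. Idi1, which interconverts both isoprenoid units, was lower by 0.55 ± 0.09 (adjusted p = 6.15e-05), and its second probe set gave -0.62. Ggps1 makes geranylgeranyl diphosphate for protein prenylation and leads away from sterols. It was 0.23 ± 0.09 higher over the 6 settings without a call (adjusted p = 0.0547), although 15 of the alternatives did call it higher. In MC38 it was called higher (0.38 ± 0.12, adjusted p = 0.0302), but its 2 other probe sets gave -0.02 and 0.15 there with no call, and leaving out MC38 day 6 deleted replicate 1 gave 0.26 (adjusted p = 0.14).

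All 3 enzymes of the squalene steps were called lower. Fdft1 encodes squalene synthase, which commits farnesyl diphosphate to sterols. Fdft1 in B16 tumours had log2 values of 8.18 and 8.14 in Nrp1-deleted hosts against 8.27 and 8.45 in control hosts at the early day, 7.62 and 7.84 in Nrp1-deleted hosts against 8.72 and 8.74 in control hosts at day 12, and 8.55, 8.35 and 8.61 in Nrp1-deleted hosts against 8.88, 8.68 and 8.92 in control hosts at day 18. Fdft1 in MC38 tumours gave values of 7.89 and 7.52 in Nrp1-deleted hosts against 7.74 and 7.85 in control hosts at day 6, 7.18, 6.88 and 6.86 in Nrp1-deleted hosts against 7.66, 7.53 and 8.07 in control hosts at day 12, and 7.23 and 7.44 in Nrp1-deleted hosts against 7.63 and 7.47 in control hosts at day 18. Its Nrp1-deleted arrays were below the controls everywhere except MC38 at day 6, where the groups overlapped. Fdft1 differed by -0.44 ± 0.06 (adjusted p = 7.47e-06). Squalene epoxidase, encoded by Sqle, adds the oxygen that every sterol keeps. Sqle in B16 tumours had log2 values of 8.11 and 7.69 in Nrp1-deleted hosts against 8.49 and 8.53 in control hosts at the early day, 6.84 and 7.39 in Nrp1-deleted hosts against 8.91 and 9.08 in control hosts at day 12, and 8.45, 8.15 and 8.50 in Nrp1-deleted hosts against 9.13, 8.80 and 9.03 in control hosts at day 18. Sqle in MC38 tumours gave values of 7.83 and 7.32 in Nrp1-deleted hosts against 7.84 and 7.86 in control hosts at day 6, 7.49, 6.81 and 6.61 in Nrp1-deleted hosts against 7.80, 7.71 and 8.22 in control hosts at day 12, and 7.09 and 7.03 in Nrp1-deleted hosts against 7.69 and 7.25 in control hosts at day 18. No Nrp1-deleted array of Sqle reached the controls of its tumour and day, but in MC38 at day 6 the nearest pair was only 7.83 against 7.84. The adjusted p over the 6 settings was 7.48e-07. Lss, lanosterol synthase, which closes the rings, was lower by 0.65 ± 0.14 (adjusted p = 0.00113) on a probe set with a low mean of 4.01.

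Of 8 enzymes that turn lanosterol into cholesterol, 7 were called lower, with a median of -0.37 for the 8. Cyp51 encodes the lanosterol demethylase. Cyp51 in B16 tumours had log2 values of 9.12 and 8.88 in Nrp1-deleted hosts against 9.47 and 9.56 in control hosts at the early day, 7.15 and 7.70 in Nrp1-deleted hosts against 8.72 and 9.10 in control hosts at day 12, and 8.15, 7.77 and 8.45 in Nrp1-deleted hosts against 8.65, 8.68 and 8.99 in control hosts at day 18. Cyp51 in MC38 tumours gave values of 8.02 and 8.03 in Nrp1-deleted hosts against 8.30 and 8.33 in control hosts at day 6, 7.16, 7.06 and 6.54 in Nrp1-deleted hosts against 7.41, 7.50 and 7.96 in control hosts at day 12, and 7.58 and 7.25 in Nrp1-deleted hosts against 7.76 and 7.24 in control hosts at day 18. The groups of Cyp51 were apart in 5 of 6 settings and overlapped in MC38 at day 18. It differed by -0.62 ± 0.09 (adjusted p = 1.26e-05), and its second probe set by -0.53, while the third, with a low mean of 3.09, gave -0.21 without a call (adjusted p = 0.0746). Msmo1, a methylsterol monooxygenase, removes methyl groups from the ring together with Nsdhl, a sterol dehydrogenase, and Hsd17b7, a ketone reductase. Msmo1 in B16 tumours had log2 values of 8.83 and 8.50 in Nrp1-deleted hosts against 8.88 and 9.07 in control hosts at the early day, 7.62 and 8.10 in Nrp1-deleted hosts against 9.31 and 9.56 in control hosts at day 12, and 8.91, 8.52 and 9.14 in Nrp1-deleted hosts against 9.76, 9.50 and 9.83 in control hosts at day 18. Msmo1 in MC38 tumours gave values of 8.88 and 8.89 in Nrp1-deleted hosts against 9.23 and 9.42 in control hosts at day 6, 8.58, 8.15 and 8.14 in Nrp1-deleted hosts against 8.79, 8.70 and 9.17 in control hosts at day 12, and 8.54 and 8.51 in Nrp1-deleted hosts against 9.03 and 8.64 in control hosts at day 18. All Msmo1 arrays of Nrp1-deleted hosts were below the controls of their setting. Msmo1 differed by -0.68 ± 0.08 (adjusted p = 4.82e-07), and a probe set near background, with a mean of 3.46, gave -0.25 (adjusted p = 0.0918). Nsdhl in B16 tumours had log2 values of 7.18 and 7.40 in Nrp1-deleted hosts against 7.49 and 7.49 in control hosts at the early day, 7.10 and 7.30 in Nrp1-deleted hosts against 7.61 and 7.76 in control hosts at day 12, and 7.07, 7.13 and 7.31 in Nrp1-deleted hosts against 7.61, 7.41 and 7.66 in control hosts at day 18. Nsdhl in MC38 tumours gave values of 7.23 and 7.07 in Nrp1-deleted hosts against 7.38 and 7.33 in control hosts at day 6, 6.62, 6.62 and 6.68 in Nrp1-deleted hosts against 7.29, 7.19 and 7.38 in control hosts at day 12, and 7.0 and 7.14 in Nrp1-deleted hosts against 7.54 and 7.37 in control hosts at day 18. The Nsdhl groups were apart in all 6 settings, with a highest Nrp1-deleted value of 6.68 against a lowest control value of 7.19 in MC38 at day 12, and the mean difference was -0.38 ± 0.05 (adjusted p = 1.95e-06). Tm7sf2, a sterol reductase, was lower by 0.47 ± 0.08, Hsd17b7 by 0.36 ± 0.09, Dhcr7, the last reductase of one route, by 0.33 ± 0.07 and Sc5d, a sterol desaturase, by 0.24 ± 0.07. Of these, Hsd17b7 and Sc5d had further probe sets with no call (Hsd17b7 -0.25, adjusted p = 0.106, and Sc5d -0.20, adjusted p = 0.228). Over all alternatives Hsd17b7 differed by -0.41 to -0.09 and Sc5d by -0.27 to -0.12, with adjusted p up to 0.533 and 0.246. The further probe sets had means of 5.52 and 3.2 for Hsd17b7, and low means of 3.55 and 3.08 for Sc5d. Ebp, the sterol isomerase, differed by 0.03 ± 0.04 and was called in no setting.

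**Figure D2:**
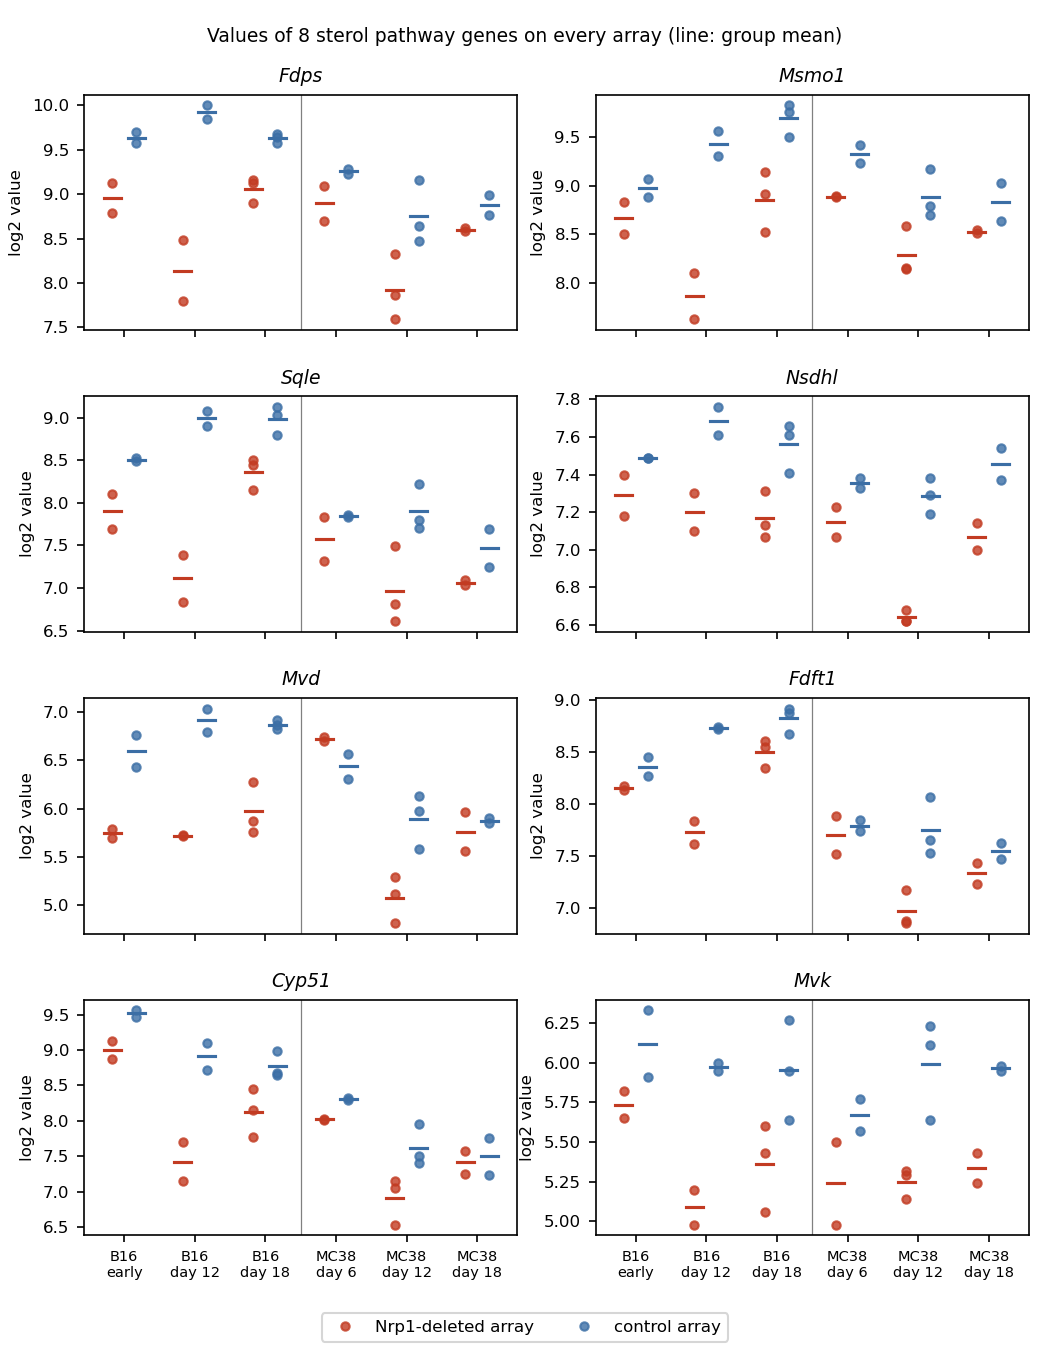
Log2 value on every array of the 8 genes with the smallest adjusted p over the 6 settings, with Nrp1-deleted arrays (red) left of control arrays (blue) at each tumour and day and a line at each group mean. In the panel of Fdps all Nrp1-deleted points lie below the control points of the same setting, with 7.80 and 8.48 against 9.85 and 10.00 in B16 at day 12.

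The 4 regulators split. Srebf2, which encodes SREBP2, and Insig1, itself a target of SREBP2, were called lower, while Scap and Insig2 were not. Srebf2 in B16 tumours had log2 values of 7.94 and 7.85 in Nrp1-deleted hosts against 7.93 and 8.05 in control hosts at the early day, 7.02 and 7.21 in Nrp1-deleted hosts against 7.98 and 8.07 in control hosts at day 12, and 7.75, 7.61 and 7.82 in Nrp1-deleted hosts against 7.94, 7.60 and 7.90 in control hosts at day 18. Srebf2 in MC38 tumours gave values of 7.19 and 7.05 in Nrp1-deleted hosts against 7.16 and 7.36 in control hosts at day 6, 7.05, 6.61 and 6.89 in Nrp1-deleted hosts against 6.83, 7.22 and 7.36 in control hosts at day 12, and 6.85 and 6.80 in Nrp1-deleted hosts against 6.91 and 6.68 in control hosts at day 18. The Srebf2 groups were apart only in B16 at day 12 and overlapped in the other 5 settings. Its mean difference was -0.25 ± 0.06 (adjusted p = 0.00386), and a second probe set gave -0.13 (adjusted p = 0.233). Insig1 in B16 tumours had log2 values of 8.85 and 8.64 in Nrp1-deleted hosts against 9.24 and 9.47 in control hosts at the early day, 7.23 and 7.72 in Nrp1-deleted hosts against 8.35 and 8.74 in control hosts at day 12, and 7.15, 6.85 and 7.26 in Nrp1-deleted hosts against 7.67, 7.69 and 8.18 in control hosts at day 18. Insig1 in MC38 tumours gave values of 8.05 and 8.26 in Nrp1-deleted hosts against 8.47 and 8.56 in control hosts at day 6, 7.13, 6.79 and 6.55 in Nrp1-deleted hosts against 7.12, 6.81 and 7.42 in control hosts at day 12, and 7.91 and 7.70 in Nrp1-deleted hosts against 8.18 and 7.60 in control hosts at day 18. Insig1 was apart on all 3 days in B16 and at day 6 in MC38, and overlapped at the later MC38 days. It differed by -0.53 ± 0.09 (adjusted p = 6.28e-05). Insig2 in B16 tumours had log2 values of 6.77 and 6.48 in Nrp1-deleted hosts against 6.65 and 6.68 in control hosts at the early day, 7.53 and 7.74 in Nrp1-deleted hosts against 7.53 and 7.43 in control hosts at day 12, and 7.30, 7.27 and 7.48 in Nrp1-deleted hosts against 7.79, 8.01 and 7.76 in control hosts at day 18. Insig2 in MC38 tumours gave values of 7.24 and 6.59 in Nrp1-deleted hosts against 7.14 and 7.01 in control hosts at day 6, 7.84, 7.59 and 7.48 in Nrp1-deleted hosts against 7.74, 7.47 and 7.55 in control hosts at day 12, and 7.46 and 7.74 in Nrp1-deleted hosts against 7.60 and 7.80 in control hosts at day 18. Insig2, the second retention protein, was lower on all Nrp1-deleted arrays only in B16 at day 18, where it was called (-0.50 ± 0.14, adjusted p = 0.0135), though not without B16 day 18 control replicate 2 (adjusted p = 0.0707). Scap in B16 tumours had log2 values of 8.25 and 8.27 in Nrp1-deleted hosts against 8.38 and 8.27 in control hosts at the early day, 8.20 and 8.30 in Nrp1-deleted hosts against 8.03 and 8.02 in control hosts at day 12, and 8.19, 8.08 and 7.96 in Nrp1-deleted hosts against 8.11, 8.09 and 7.91 in control hosts at day 18. Scap in MC38 tumours gave values of 7.27 and 7.12 in Nrp1-deleted hosts against 7.16 and 7.14 in control hosts at day 6, 7.46, 7.43 and 7.45 in Nrp1-deleted hosts against 7.57, 7.51 and 7.24 in control hosts at day 12, and 7.39 and 7.53 in Nrp1-deleted hosts against 7.31 and 7.20 in control hosts at day 18. For Scap the Nrp1-deleted arrays were above the controls in B16 at day 12 and in MC38 at day 18, and the groups overlapped or touched elsewhere. Its difference of 0.08 ± 0.04 did not pass (adjusted p = 0.234).

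Of 4 genes of sterol transport and storage, 3 were called lower, with a median of -0.14. Tmem97, a sterol-regulated endoplasmic reticulum protein that binds the lysosomal transporter NPC1, was lower by 0.63 ± 0.10 (adjusted p = 2.76e-05). Stard4, a cytosolic sterol carrier, was lower by 0.20 ± 0.06 (adjusted p = 0.0151). Npc2, which hands cholesterol to NPC1 in the lysosome, was lower by 0.09 ± 0.03 (adjusted p = 0.0322). Npc1 had a mean difference of -0.00 ± 0.06 and was called in opposite directions in the tumour lines, -0.32 ± 0.08 in B16 (adjusted p = 0.00456) and 0.31 ± 0.08 in MC38 (adjusted p = 0.00772).

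Proximal promoters are shown because SREBP2 acts on them together with the factors NF-Y and Sp1. RefSeq windows on GRCm38.p6, from 250 bases before the transcription start to 50 bases after it, were given for 21 of the 26 genes. The motifs searched on both strands were TCACNCCAC, a core of the sterol regulatory element, ATCACGTGA, an E-box form that SREBPs bind, CCAAT for NF-Y and GGGCGG for Sp1. CCAAT was found in 19 of the 21 genes, against 42.3% of genes on the array with a window, and GGGCGG in 19 of 21, against 57.3%. The core was found in 1, Hmgcs1, against 1.5% of genes on the array, and ATCACGTGA in 0, against 0.551%. A match is only a run of letters, and the lack of one covers only these letters in this window. Shown are Mvd, Msmo1 and Cyp51, of the 8 genes with the smallest adjusted p, and Hmgcs1, chosen for its match after it was seen. Capitals mark CCAAT, or ATTGG where it lies on the other strand, and in Hmgcs1 also TCACCCCAC, which begins 137 bases before the start. The windows are chr8:122443373-122443672 (minus strand) for Mvd, chr8:64733529-64733828 (minus strand) for Msmo1, chr5:4104648-4104947 (minus strand) for Cyp51 and chr13:119690101-119690400 (plus strand) for Hmgcs1.
Mvd promoter: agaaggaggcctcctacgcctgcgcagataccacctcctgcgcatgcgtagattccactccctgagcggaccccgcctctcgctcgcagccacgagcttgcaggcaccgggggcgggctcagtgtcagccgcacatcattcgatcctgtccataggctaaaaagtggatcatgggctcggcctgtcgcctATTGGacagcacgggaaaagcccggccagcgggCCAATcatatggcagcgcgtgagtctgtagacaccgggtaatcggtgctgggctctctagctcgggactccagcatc
Msmo1 promoter: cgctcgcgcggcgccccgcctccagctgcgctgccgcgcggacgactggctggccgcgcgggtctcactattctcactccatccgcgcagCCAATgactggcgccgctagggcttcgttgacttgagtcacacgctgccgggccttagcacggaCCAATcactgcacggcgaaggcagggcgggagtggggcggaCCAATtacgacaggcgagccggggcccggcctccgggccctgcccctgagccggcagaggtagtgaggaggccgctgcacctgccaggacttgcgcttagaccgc
Cyp51 promoter: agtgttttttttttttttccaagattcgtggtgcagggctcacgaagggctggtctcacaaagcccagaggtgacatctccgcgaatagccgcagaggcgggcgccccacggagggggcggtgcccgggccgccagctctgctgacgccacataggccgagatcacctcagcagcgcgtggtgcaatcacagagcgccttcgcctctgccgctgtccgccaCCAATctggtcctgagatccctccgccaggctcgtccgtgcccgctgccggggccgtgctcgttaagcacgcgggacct
Hmgcs1 promoter: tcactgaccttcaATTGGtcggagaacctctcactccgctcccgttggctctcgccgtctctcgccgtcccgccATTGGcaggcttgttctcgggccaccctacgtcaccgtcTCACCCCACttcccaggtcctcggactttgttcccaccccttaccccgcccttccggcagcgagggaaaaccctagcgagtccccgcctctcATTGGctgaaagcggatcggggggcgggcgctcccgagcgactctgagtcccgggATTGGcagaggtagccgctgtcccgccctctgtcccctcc
Msmo1 carried CCAAT at 160, 96 and 55 bases before the start, Mvd at 60 and 27 bases, and Cyp51 at 29 bases. Hmgcs1 had 4 matches to CCAAT, 3 of them before the start.

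In B16 tumours 21 of the 26 genes were called lower and 0 higher over the 3 days, against 12.3% of all genes called lower and 10.3% higher, with a median of -0.49 against 0.01 over all genes. Of the 28 fits with 1 array left out, Dhcr7 was called in 20, Sc5d in 23 and Stard4 in 19. Their differences ranged there from -0.37 to -0.26, -0.36 to -0.25 and -0.30 to -0.20 in that order. On the early day 0 were called, against 0.292% of all genes lower and 0.152% higher, while 8 were lower at an unadjusted p under 0.05 in the same limma fit, against 5.42% of all genes. At day 12, 17 were called lower and 0 higher, against 9.17% and 7.8% of all genes, with a median of -0.88. Sqle (3.69-fold), Fdps (3.45-fold), Msmo1 (2.98-fold), Cyp51 (2.80-fold) and Idi1 (2.75-fold) were the lowest. Srebf2 was 1.88-fold lower on that day (-0.91 ± 0.16, adjusted p = 0.000243), and Hsd17b7, the reductase of the demethylation steps, 2.36-fold (adjusted p = 0.000432). At day 18, 12 were called lower and 0 higher, against 11.3% and 7.54% of all genes, led by Mvd (-0.90 ± 0.17, adjusted p = 0.00037), Hmgcs1 (-1.29 ± 0.24, adjusted p = 0.000442) and Msmo1 (-0.84 ± 0.16, adjusted p = 0.0006). Of these calls, 10 of 17 at day 12 and 4 of 12 at day 18 were made whichever array was left out. Without B16 day 12 control replicate 2 the day 12 count was 11, and without B16 day 18 control replicate 3 or deleted replicate 2 the day 18 count was 7.

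Markers of other cells moved with the genotype in the same B16 arrays. All 10 macrophage markers were called lower in B16 (median -1.80), all 5 dendritic cell markers (median -1.95), and all 8 melanocytic genes (median -1.74), while 7 of 8 T cell markers were called higher (median 0.80). Of 5 monocyte markers 3 were called lower in B16, with a median of -1.92. That median was -4.08 at day 12 and -0.12 at day 18, where 0 were called. Of 4 neutrophil markers 3 were called lower in B16 (median -1.18). Of 5 mast cell and basophil markers 4 were called higher (median 1.28), and of 5 NK cell markers 2 (median 0.62). At day 12 the summed linear level of the macrophage markers was 888 to 1420 intensity units in Nrp1-deleted hosts, against 12400 to 12500 in control hosts, and that of the melanocytic genes was 495 to 1020, against 2940 to 3350. At day 18 the melanocytic sum was 890 to 2080 in Nrp1-deleted hosts, against 12100 to 17000 in control hosts, and the macrophage sum 2780 to 4390, against 5970 to 11100. The T cell sum at day 12 was 19000 to 21300 in Nrp1-deleted hosts, against 10100 to 10900 in control hosts. On the early day, the macrophage sum was 1120 to 2950 in Nrp1-deleted hosts, against 2980 to 3370 in control hosts, while the melanocytic sum was 1900 to 4090, against 2660 to 2730, with 0 of 8 genes called (median 0.26). The part of these cells in the lower sterol transcripts was not tested.

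In MC38 tumours 9 genes were called lower, against 12.3% of all genes, and 2 higher, against 6.97%, with a median of -0.27 against -0.06 over all genes. The 9 were Mvk (-0.60 ± 0.13), Fdps (-0.49 ± 0.12), Fdft1 (-0.36 ± 0.09), Sqle (-0.54 ± 0.13), Msmo1 (-0.45 ± 0.11), Nsdhl (-0.41 ± 0.07), Dhcr7 (-0.34 ± 0.10), Aacs (-0.36 ± 0.12) and Tmem97 (-0.65 ± 0.14), and those higher were Ggps1 and Npc1. Of these 11 calls, 8 were made whichever array was left out. The others were Aacs, called in 18 of the 28 fits with 1 array left out, Dhcr7 in 24 and Ggps1 in 22. Their differences ranged there from -0.46 to -0.27, -0.42 to -0.26 and 0.26 to 0.50 in that order. At day 12, 11 genes were called lower and 0 higher, against 4.87% and 3.71% of all genes, with a median of -0.54. Sqle was 1.92-fold lower on that day (-0.94 ± 0.20, adjusted p = 0.00401), Fdps 1.78-fold, Mvd 1.77-fold and Nsdhl 1.57-fold (-0.65 ± 0.10, adjusted p = 0.000353). Of the 11, 5 were called whichever array was left out (Mvd, Fdps, Fdft1, Sqle and Nsdhl). Without MC38 day 12 control replicate 3 the count was 5, and with only the compared groups in the fit it was 4. At day 6 there were 0 calls, against 1.99% of all genes lower and 0.983% higher, and at day 18 there were 0, against 2.24% lower and 3.12% higher. Without MC38 day 6 deleted replicate 1 the day 6 count was 1. At an unadjusted p under 0.05 in the same limma fits, 2 were lower and 2 higher at day 6, against 10.3% and 5.32% of all genes, and 3 were lower and 0 higher at day 18, against 10.5% and 7.5%, so these counts were near the background.

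The macrophage markers stood at other values in MC38. Of 10, 0 were called in MC38 (median -0.22), with medians of -0.14 at day 12 and -0.36 at day 18. Their summed level was lower in Nrp1-deleted hosts on each day, without overlap. It was 23800 to 27900 against 28900 to 29200 in control hosts at day 6. At day 12 it was 22900 to 25700 against 25800 to 28900, and at day 18 it was 32000 to 32100 against 40400 to 40500. Of 5 dendritic cell markers 1 was called lower, Batf3 (-0.64 ± 0.15), with a median of -0.34 for the 5. The 8 melanocytic genes stayed at 262 to 308 in Nrp1-deleted hosts against 301 to 336 in control hosts at day 12, with 0 called in MC38. Of 8 T cell markers, 7 were called higher in MC38 (median 1.11), with sums of 2220 to 4660 in Nrp1-deleted hosts against 698 to 2900 in control hosts at day 12. All 5 NK cell markers were called higher (median 1.06), as were 2 of 5 monocyte markers (median 0.47, with -0.02 at day 12 and 1.14 at day 18). Of 8 fibroblast genes, 3 were called lower in MC38, Col3a1 (-2.18 ± 0.23), Dcn (-2.07 ± 0.16) and Postn (-2.13 ± 0.18), and the other 5 lay between -0.30 and -0.02 without a call. At day 12 the 8 summed to 253 to 493 in Nrp1-deleted hosts against 1930 to 2210 in control hosts. Of 11 cell cycle genes, 10 were called lower in MC38 (median -0.49) and 1 of 11 at day 12. The part of macrophages, dendritic cells, T cells, NK cells, monocytes, fibroblasts and cycling cells in the sterol transcripts was not tested.

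**Figure D3:**
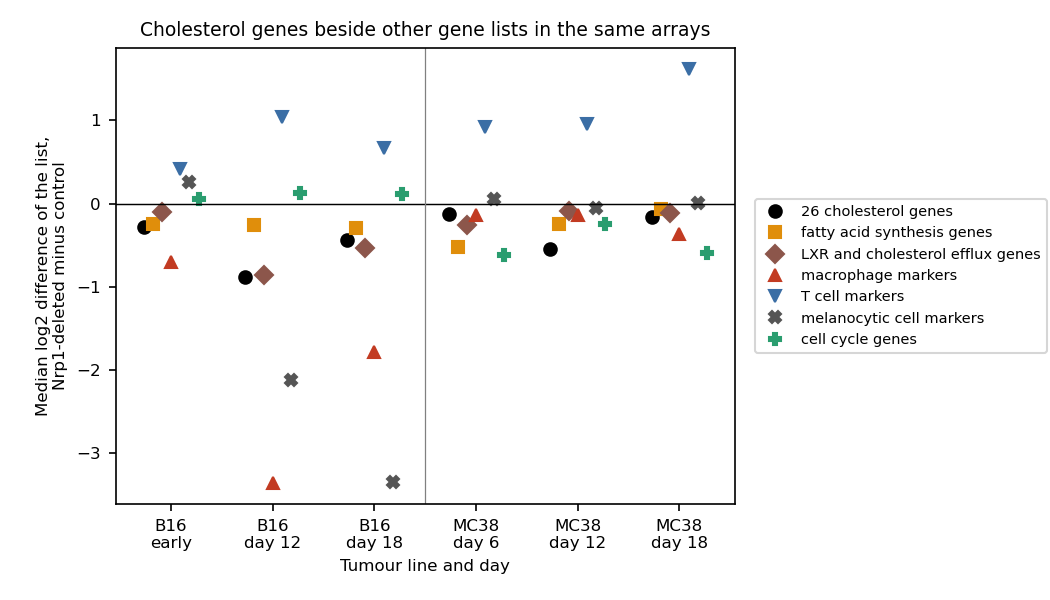
Median log2 difference (Nrp1-deleted minus control) of the 26 cholesterol genes and of 6 other gene lists at each tumour and day. The cholesterol genes lie at -0.88 in B16 at day 12, where macrophage markers lie at -3.36, and at -0.54 in MC38 at day 12, where macrophage markers lie at -0.14.

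Whether the genotype difference itself differed between tumour lines was tested as the B16 difference minus the MC38 difference. It was called lower for 7 of the 26 genes and higher for 0, against 7.22% of all genes called lower and 6.75% higher. Mvd differed most, with -0.99 ± 0.11 in B16 and -0.22 ± 0.11 in MC38 (B16 minus MC38 -0.77 ± 0.16, adjusted p = 0.00156). Idi1 (-0.61 ± 0.18), Insig1 (-0.57 ± 0.18), Fdps (-0.52 ± 0.17), Msmo1 (-0.46 ± 0.15) and Npc2 (-0.19 ± 0.06) were also further down in B16. Npc1 differed by -0.62 ± 0.11 (adjusted p = 0.000453), being lower in B16 and higher in MC38. Only Mvd and Npc1 were called whichever array was left out. The count was 2 to 8 over those fits, and leaving out B16 day 12 control replicate 2, MC38 day 18 control replicate 2 or deleted replicate 1, or B16 early control replicate 2 or deleted replicate 2 gave 2. It was 3 without B16 day 18 control replicate 3 or deleted replicate 2, MC38 day 12 deleted replicate 1, MC38 day 6 control replicate 1 or deleted replicate 1, or B16 day 12 deleted replicate 1. It was 4 without B16 day 18 control replicate 1, MC38 day 12 control replicate 2 or MC38 day 6 control replicate 2. Mvk (-0.62 ± 0.13 in B16 and -0.60 ± 0.13 in MC38), Nsdhl (-0.36 ± 0.07 and -0.41 ± 0.07 in that order) and Tmem97 (-0.61 ± 0.14 and -0.65 ± 0.14) had close values in both lines, with differences between lines of -0.02 ± 0.18, 0.05 ± 0.10 and 0.04 ± 0.20. This test sets effects from different array sets and days against each other. By the same test all 10 macrophage markers, all 5 dendritic cell markers and all 8 melanocytic genes were further down in B16 than in MC38. So were 4 of 5 monocyte and 3 of 4 neutrophil markers, while all 11 cell cycle genes were called higher.

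**Figure D4:**
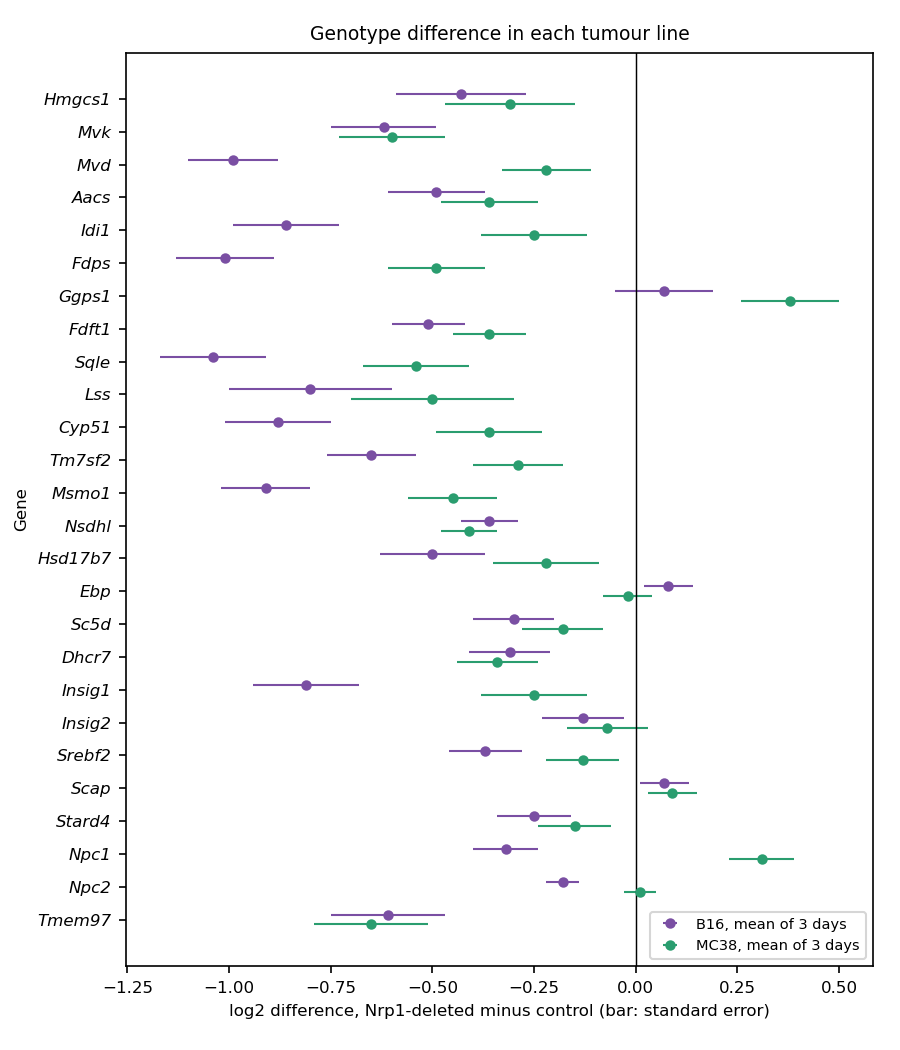
Log2 difference (Nrp1-deleted minus control) of each gene averaged over 3 days in B16 (purple) and MC38 (green), with bars for the standard error. Mvd, Idi1 and Insig1 lie further down in B16, Mvk, Nsdhl and Tmem97 lie together, and Npc1 lies below 0 in B16 and above 0 in MC38.

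Over tumour growth Insig2 was called higher in both genotypes and both tumour lines, and Insig1 was called lower in both genotypes in B16 only, without a test of that difference between lines. In B16 tumours of Nrp1-deleted hosts, day 12 against the early day called 10 genes lower and 1 higher, against 7.09% of all genes lower and 9.14% higher. Insig2 was higher by 1.01 ± 0.17 (adjusted p = 0.000266), with 7.53 and 7.74 at day 12 against 6.77 and 6.48 early. The lowest were Cyp51 (-1.57 ± 0.24), Insig1 (-1.27 ± 0.23), Tmem97 (-1.26 ± 0.26) and Hsd17b7 (-1.18 ± 0.23), and Srebf2 was lower by 0.78 ± 0.16 (adjusted p = 0.00161). Of the 10 macrophage markers 3 were called lower (median -0.53), and of the 8 melanocytic genes all 8 (median -1.98). The part of these cells in the result was not tested. The count of 11 calls was 6 without B16 day 12 deleted replicate 1 or early deleted replicate 1.

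In control hosts the same B16 interval called 1 gene lower and 2 higher, against 6.92% of all genes lower and 9.14% higher. Insig2 was higher by 0.82 ± 0.17 (adjusted p = 0.00167), with 7.53 and 7.43 at day 12 against 6.65 and 6.68 early, and its 2 other probe sets were called higher too (0.56 and 1.01). Insig1 was lower by 0.81 ± 0.23 (adjusted p = 0.0169), at 8.35 and 8.74 against 9.24 and 9.47, with no call without B16 day 12 control replicate 1 (adjusted p = 0.208). Npc2 was higher by 0.43 ± 0.08 (adjusted p = 0.000504), at 11.99 or above on both day 12 arrays against 11.57 on both early ones. All 10 macrophage markers were called higher over the same interval (median 2.02), and 1 of 8 melanocytic genes (median 0.30). The count of 3 calls in control hosts was 8 with array weights and 11 with only the compared groups in the fit, so it does not show fewer changes than in Nrp1-deleted hosts.

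The B16 change in Nrp1-deleted hosts minus that in control hosts was called lower for 6 genes and higher for 0, against 4.41% and 1.88% of all genes. These were Sqle (-1.27 ± 0.34), Msmo1 (-1.27 ± 0.28), Fdps (-1.11 ± 0.31), Srebf2 (-0.81 ± 0.23), Fdft1 (-0.80 ± 0.23) and Npc2 (-0.38 ± 0.11). In the same contrast all 10 macrophage markers (median -2.58) and all 8 melanocytic genes (median -2.23) were called lower. So were 3 of 5 monocyte and 3 of 5 dendritic cell markers. None of the 6 sterol genes was called whichever array was left out. The count was 0 without B16 early deleted replicate 1, and 1 without early control replicate 1, day 12 control replicate 1 or 2, or day 12 deleted replicate 1. It was 2 without early control replicate 2, 3 without early deleted replicate 2 and 3 with a replicate block.

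In MC38 tumours of Nrp1-deleted hosts, day 18 against day 6 called Mvd lower by 0.96 ± 0.20 (adjusted p = 0.0112) and Insig2 higher by 0.69 ± 0.17 (adjusted p = 0.0391), against 0.749% of all genes lower and 1.19% higher. Insig2 read 7.46 and 7.74 there at day 18, against 7.24 and 6.59 at day 6. The count was 0 without MC38 day 6 deleted replicate 2 or day 18 deleted replicate 2, and 1 without day 18 deleted replicate 1 or either early B16 control array. In control hosts 1 gene was called lower and 1 higher, against 4.54% of all genes lower and 4.4% higher. Cyp51 was lower by 0.82 ± 0.24 (adjusted p = 0.0305), with 7.76 and 7.24 at day 18 against 8.30 and 8.33 at day 6. Insig2 was higher by 0.62 ± 0.17 (adjusted p = 0.0244), with 7.60 and 7.80 at day 18 against 7.14 and 7.01 at day 6, but its other probe sets gave 0.17 and 0.54 in control hosts with no call. Srebf2 came next without a call (-0.46 ± 0.16, adjusted p = 0.0853), at 6.91 and 6.68 on day 18 against 7.16 and 7.36 on day 6. The count in control hosts was 0 without MC38 day 6 control replicate 1 or 2 or day 18 control replicate 2, and 1 without day 18 control replicate 1. The difference of the change between genotypes was called for 0 of the 26, against 0.0175% of all genes lower and 0.0643% higher, and 0 passed at an unadjusted p under 0.05 in limma, against 2.74% of all genes lower and 3.99% higher.

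**Figure D5:**
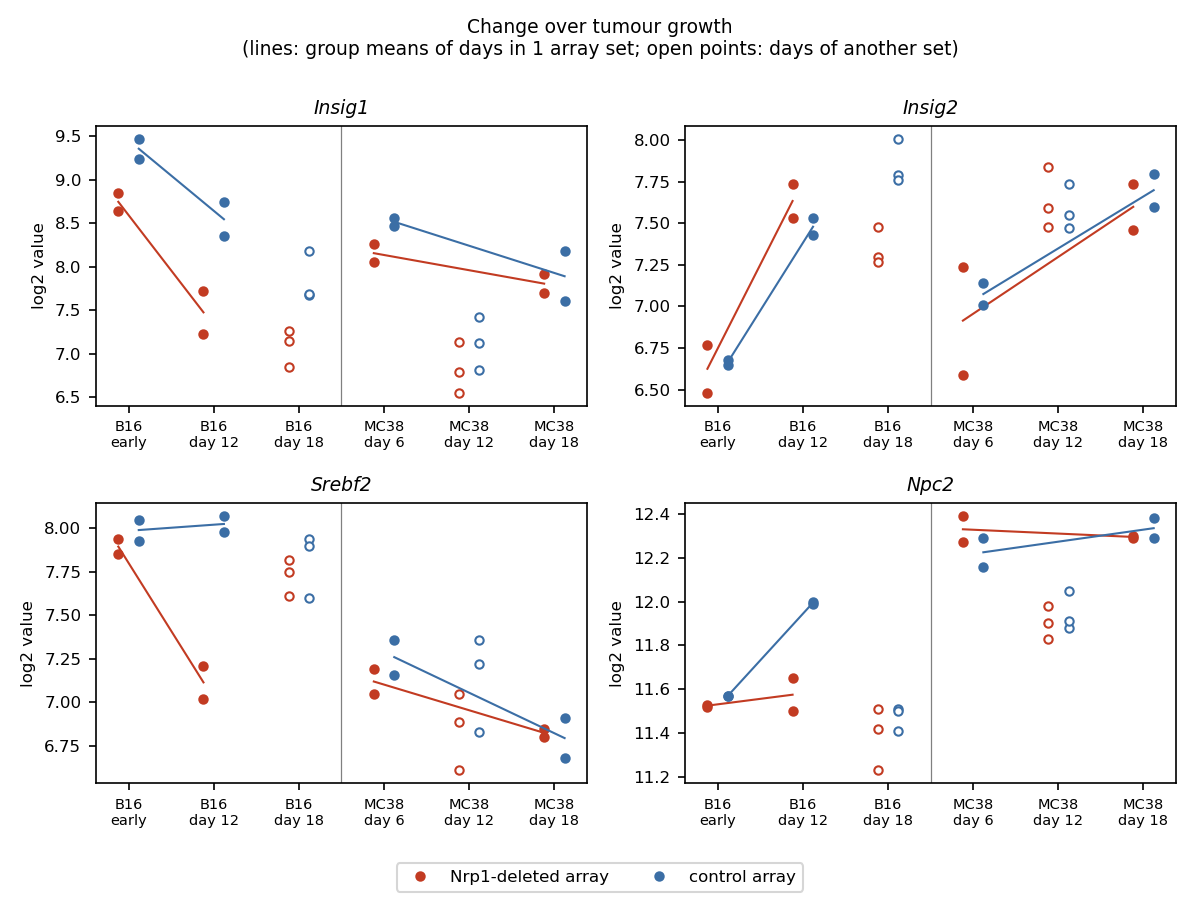
Log2 value of Insig1, Insig2, Srebf2 and Npc2 on every array by tumour and day, Nrp1-deleted (red) left of control (blue). Lines join the group means of days in 1 array set, and open points are days from another set. Insig2 lies higher at day 12 than early in B16 in both genotypes, and Srebf2 at day 12 lies at 7.02 and 7.21 in Nrp1-deleted hosts, against 7.98 and 8.07 in control hosts.

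The genes varied together also within groups. Over the 28 arrays, the median Pearson correlation between 2 of the 26 genes was 0.25 after each group's mean was removed and 0.58 after the mean of each tumour and day was removed, against 0.01 and 0.02 for 1900 genes taken evenly from the array. Removing only the tumour and day mean leaves the genotype difference in. Arrays of a group may also share handling that the labels do not name, so these are descriptions. Within groups, Fdps (r = 0.93), Sqle (0.92), Idi1 (0.90), Fdft1 (0.84) and Msmo1 (0.80) followed the mean of the other genes most closely, while Scap (-0.20), Tm7sf2 (-0.05) and Hmgcs1 (-0.05) were near or below 0. By the same measure, the mean of the 26 ran against that of T cell markers (r = -0.80) and NK cell markers (-0.68), and with that of fatty acid synthesis genes (0.65), monocyte markers (0.65) and macrophage markers (0.51). Values were smaller for neutrophil markers (0.24), LXR and efflux genes (0.22), melanocytic genes (0.15), dendritic cell markers (0.12) and cell cycle genes (0.04). In groups of 2 arrays the deviations from the mean mirror each other, so the 28 values are not independent.

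Genes around the pathway were counted by list, beside 17.9% of all genes called lower and 11% higher over the 6 settings. Of 12 genes of fatty acid synthesis, under the related factor SREBP1, 7 were called lower and 1 higher over the 6 settings (median -0.23, against -0.03 over all genes). Fads2 (-1.56 ± 0.11), Fads1 (-1.02 ± 0.08) and Scd1 (-1.45 ± 0.13), which are fatty acid desaturases, and Acsl3 (-1.18 ± 0.12), which activates fatty acids, had the smallest adjusted p. Of 9 genes of LXR and cholesterol efflux, 5 were called lower and 2 higher (median -0.31). Cyp27a1, a sterol hydroxylase, was lower by 0.86 ± 0.07, Apoe, the lipoprotein of efflux, by 1.35 ± 0.14 and Scarb1, a lipoprotein receptor, by 0.87 ± 0.10, while Abcg1, a cholesterol exporter, was higher by 0.40 ± 0.06 (adjusted p = 2.01e-05). In B16 Apoe differed by -2.23 ± 0.20, and in MC38 by -0.48 ± 0.20 without a call (adjusted p = 0.098). Of 6 genes of SREBP processing and sterol-regulated degradation, 2 were called lower and 1 higher (median 0.02). Erlin1 and Erlin2, which bind cholesterol and hold SREBP complexes in the endoplasmic reticulum, were lower by 0.60 ± 0.07 and 0.25 ± 0.06, and Rnf139, a ubiquitin ligase, was higher by 0.14 ± 0.03. The proteases that cut SREBP2 were not called (Mbtps1 0.12 ± 0.05, adjusted p = 0.0604, and Mbtps2 -0.03 ± 0.08, adjusted p = 0.853). Of 9 genes that use isoprenoids for prenylation, dolichol and ubiquinone, 1 was called lower and 1 higher, near the shares of all genes. These were Rabggtb (-0.19 ± 0.05) and Pggt1b (0.26 ± 0.06) in that order, subunits of geranylgeranyl transferases.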

How the data were processed

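Gene expression of sorted CD45+ cells was measured on 28 Affymetrix arrays, 1 per sample. The authors deposited log2 values, and the submitters' processing notes name RMA and the software Partek 6.6. RMA sets all arrays it processes together to 1 distribution, and the deposited values showed 3 distributions, so levels were compared only within them. Of a gene's probe sets, the one with the highest mean was used, and probe sets naming several genes or none were left out, which gave 17097 genes. Groups came from the sample labels. A limma 3.58.1 model in R 4.3.3 with 12 group means and an intensity trend gave every contrast, with Benjamini-Hochberg adjustment over all genes at 0.05, and was tested on simulated data. Per-array values are given for the 8 genes with the smallest adjusted p over the 6 settings, the regulators and the leading genes of each time contrast in control hosts. Genes of other lists are named by smallest adjusted p. The members and lists were chosen with earlier results of these data known. Replicate numbers were not used to pair the arrays in the main model. Same-numbered arrays had correlations of their deviations between -0.28 and 0.20. These show no strong shared shift but cannot tell whether such arrays shared mice or handling. Alternatives covered the filter on low values, the choice of probe sets, normalization, the variance model, array weights, the groups in the fit, a replicate block and leaving out each array.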

Additional observations from a re-analysis of the deposited data

Results flagged for a closer look

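The genotype difference differed between the tumour lines by the limma test of the difference itself for 7 genes (B16 minus MC38). Mvd gave -0.77 ± 0.16 (adjusted p = 0.00156), Idi1 -0.61 ± 0.18 (0.0293), Fdps -0.52 ± 0.17 (0.0391), Msmo1 -0.46 ± 0.15 (0.0472), Insig1 -0.57 ± 0.18 (0.0342), Npc1 -0.62 ± 0.11 (0.000453) and Npc2 -0.19 ± 0.06 (0.0421). Only Mvd and Npc1 were called whichever array was left out, and the count fell to 2 without, for example, MC38 day 18 control replicate 2. Of the 28 fits with 1 array left out, Idi1 was called in 20, Insig1 in 17, Fdps in 12, and Msmo1 and Npc2 in 9 each. All 10 macrophage markers, all 5 dendritic cell markers and all 8 melanocytic genes differed the same way, and all 11 cell cycle genes the other way. The part of these cell types and of cycling cells in the result was not tested.

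The change between the early day and day 12 in B16 tumours differed between Nrp1-deleted and control hosts for 6 genes by the same kind of test (change in Nrp1-deleted minus change in control hosts). Fdps gave -1.11 ± 0.31 (adjusted p = 0.0316), Fdft1 -0.80 ± 0.23 (0.0328), Sqle -1.27 ± 0.34 (0.0239), Msmo1 -1.27 ± 0.28 (0.00604), Srebf2 -0.81 ± 0.23 (0.0355) and Npc2 -0.38 ± 0.11 (0.0475). None of the 6 was called whichever array was left out, and the count was 0 without B16 early deleted replicate 1. All 10 macrophage markers and all 8 melanocytic genes were lower in the same contrast, as were 3 of 5 monocyte and 3 of 5 dendritic cell markers. The part of these cells in the result was not tested. Without B16 day 12 deleted replicate 1, Msmo1 had an adjusted p of 0.0608 and Fdps one of 0.219.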

How the results depend on the processing

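Counts of genes called lower moved little for the mean over settings (20 to 21 over all alternatives, 20 to 21 with 1 array left out), for B16 (18 to 22, and 18 to 22) and for MC38 (7 to 10, and 7 to 11). With 1 array left out, the count of calls was 0 to 1 in early B16 tumours, 11 to 18 in B16 at day 12, 7 to 13 in B16 at day 18, 0 to 1 in MC38 at day 6, 5 to 14 in MC38 at day 12 and 2 to 8 for B16 minus MC38. Over time it was 0 to 2 in MC38 in either genotype, 6 to 13 in B16 Nrp1-deleted hosts, 2 to 4 in B16 control hosts and 0 to 7 for their difference.

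With genes above the median of all values only, the count was 1 in early B16, 1 in MC38 at day 18 and 5 over time in B16 control hosts. With array weights it was 1 in early B16, 3 in MC38 at day 18, 1 over time in MC38 Nrp1-deleted hosts, 6 over time in MC38 control hosts and 8 over time in B16 control hosts. With only the compared groups it was 4 in MC38 at day 12, 1 in MC38 at day 18, 0 over time in MC38 Nrp1-deleted hosts, 8 in MC38 control hosts, and 11 over time in B16 control hosts. With the mean over a gene's probe sets it was 7 in MC38 at day 12, 0 over time in MC38 Nrp1-deleted hosts and 1 in MC38 control hosts. Cyclic loess gave 1 and no intensity trend gave 1 over time in MC38 Nrp1-deleted hosts. No intensity trend and a robust trend gave 4 each for B16 minus MC38. The second probe set turned the sign of Aacs (0.03 overall and 0.07 in MC38) and of Ggps1 in MC38 (-0.02). With the replicate block the B16 time difference had 3 calls, and the block gave 21, 21 and 9 genes lower for the mean, B16 and MC38. It could not be fitted for time within 1 genotype. The cause of these shifts was not tested. Few arrays and low signal for Hmgcs1 and Lss limit the precision.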
